A study of Mus musculus with 24 samples.

Results

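The 10 genes of prostaglandin synthesis and reception were read from the RNA-Seq counts of mouse pulmonary fibroblasts, which is 10 of the 55291 gene names counted. They were chosen by name and by role: Pla2g4a, Ptgs1, Ptgs2, Ptges, Ptgis and Ptgds for synthesis, and Ptger2, Ptger3, Ptger4 and Ptgir for reception. All 10 names were found in the 24 libraries. Of these, 9 passed the filter on low counts and were tested. Ptgds, the lipocalin-type prostaglandin D synthase, had 3 reads in all 24 libraries together and none in 22 of them, so it was not tested.

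The fibroblasts came from lungs of C57BL/6 wild type (WT) mice and of TLR4-/- mice on the same background, all 4 to 8 weeks old, and each group of cells was isolated from a pool of 3 to 4 lungs. Cells at passages 3 to 6 were kept overnight in Opti-MEM, a medium with little serum, and then received PBS, 1 μg/ml recombinant mouse cold-inducible RNA-binding protein (rmCIRP), 2 ng/ml recombinant mouse transforming growth factor β1 (rmTGF-β1), or rmCIRP and rmTGF-β1 together ("both"). After 24 h, RNA was taken for sequencing, and each of the 8 conditions has 3 libraries. Nothing states that the 3 libraries of a condition came from separate pools of mice, so the p-values measure the spread between libraries, which may be technical.

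Prostaglandins are short-lived lipid signals. Cytosolic phospholipase A2, the product of Pla2g4a, releases arachidonic acid from membranes, and a cyclooxygenase, COX-1 (Ptgs1) or COX-2 (Ptgs2), turns it into prostaglandin H2. Terminal synthases then make the separate products: microsomal prostaglandin E synthase-1 (Ptges) makes prostaglandin E2, prostacyclin synthase (Ptgis) makes prostacyclin, and Ptgds makes prostaglandin D2. Prostaglandin E2 signals through the receptors EP2 (Ptger2), EP3 (Ptger3) and EP4 (Ptger4), and prostacyclin through the IP receptor (Ptgir). EP2, EP4 and IP raise cyclic AMP, whereas EP3 usually lowers it. In lung fibroblasts, prostaglandin E2 is known as a brake on proliferation and collagen synthesis.

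The promoters of 3 genes are shown because these genes had the clearest changes in opposite directions with rmCIRP in WT cells: Ptgs2 and Ptges rose and Ptgs1 fell. Each sequence runs 5′ to 3′ from 200 bases before the RefSeq transcript start to 30 bases after it, in build GRCm38.p6. Capitals mark matches, on either strand, to the letters of 8 motifs that are spelled out after the sequences. The SMAD-like letters were also searched and are not capitalized.
Ptgs2, chr1:150099831-150100060, plus strand: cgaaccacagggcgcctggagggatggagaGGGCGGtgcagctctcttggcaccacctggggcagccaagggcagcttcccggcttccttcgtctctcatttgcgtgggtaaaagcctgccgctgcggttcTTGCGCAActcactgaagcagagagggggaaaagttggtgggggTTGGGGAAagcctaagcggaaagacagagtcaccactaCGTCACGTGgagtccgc
Ptges, chr2:30903268-30903497, minus strand: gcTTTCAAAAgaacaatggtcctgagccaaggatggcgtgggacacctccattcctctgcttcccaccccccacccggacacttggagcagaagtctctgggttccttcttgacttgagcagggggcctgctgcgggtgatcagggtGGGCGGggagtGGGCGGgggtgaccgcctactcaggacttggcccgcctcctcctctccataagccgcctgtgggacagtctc
Ptgs1, chr2:36230226-36230455, plus strand: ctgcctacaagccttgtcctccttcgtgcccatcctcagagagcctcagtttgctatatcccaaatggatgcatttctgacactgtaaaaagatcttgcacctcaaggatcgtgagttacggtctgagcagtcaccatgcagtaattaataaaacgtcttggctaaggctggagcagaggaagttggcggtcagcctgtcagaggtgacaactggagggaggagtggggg

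The Ptgs2 window held C/EBP-like letters at positions -69 to -62 and -25 to -18, a GC box, and a CRE core at 14 to 18 that overlaps an E-box at 17 to 22. The Ptges window held 2 GC boxes and a C/EBP-like match, and the Ptgs1 window held none of the capitalized motifs. The motifs were counted on both strands of 32851 promoters of the table, from 250 bases before to 50 after each start. The C/EBP-like letters TTNNGNAA were in 40.7% of these promoters and the GC box, read here as GGGCGG, in 35.7%. The full CRE, TGACGTCA, was in 1.79%, and its core, which the full CRE contains and which is the run TGACG, was in 20.8%. The E-box, searched as CACGTG, was in 7.15%, and the AP-1 letters, searched as TGANTCA, in 7.81%. The TATA letters, searched as TATAAA, were in 13.6%, and the SMAD-like letters, searched as CAGAC, in 49.6%. The NF-κB-like letters, GGGA followed by any 4 bases and then CC, were in 20.7% and matched none of the 3 windows. A match describes the sequence, not a bound site. RefSeq entries were matched for 9 of the 10 genes, the exception being Ptgis.

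Each library had between 29853346 and 39664606 reads counted on genes. The 8 fibroblast markers were present in every library, with a summed normalized count (reads divided by the library's size factor) of 579891.3 to 801174.7. The libraries labelled TLR4-/- stood apart from WT in other ways. Their Tlr4 count with PBS was 903.3 ± 20.2 (SD, n = 3), against 759.1 ± 41.9 (SD, n = 3) in WT, so gene counts do not show the deletion, and "labelled TLR4-/-" is used below. All 13 macrophage markers were higher there, with a summed count of 328974.6 to 377864.8 with PBS against 91089.6 to 98871.1 in WT. Xist, transcribed in female cells, had 4328.4 to 6096.4 normalized counts there and at most 3 raw reads in WT libraries, whereas the Y-linked Ddx3y was counted in both. Among the labelled TLR4-/- libraries, library 3 with both agents lay farthest from its group over all genes, with a root mean square log2 deviation of 0.269, while the WT libraries had 0.166 to 0.18. Library 3 with rmTGF-β1 had 0.206 and shared part of that deviation (r = 0.37 across genes, which are not independent). By size alone it was not the next farthest, since library 1 with both agents had 0.218. Library 2 with rmTGF-β1 had 0.199. Results that rest on the 2 libraries numbered 3 are also given without them, and these are called the 2 libraries that stand apart.

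In WT cells, rmCIRP against PBS called 8 of the 9 tested genes at an adjusted p under 0.1, 6 higher and 2 lower, where 43.9% of all 16258 tested genes were called, 19.8% higher and 24.1% lower. Ptges and Ptgs2 rose most, Ptgir, Ptger2, Ptgis and Pla2g4a also rose, and Ptgs1 and Ptger4 fell. The median log2 fold change over the 9 genes was 0.34, and over all tested genes -0.02. When rmTGF-β1 was present, adding rmCIRP (both against rmTGF-β1) again called 8 of the 9, 6 higher and 2 lower, against 42.2% of all genes (20.5% higher and 21.7% lower). Pla2g4a was not called there and Ptger3 rose. In the labelled TLR4-/- cells, rmCIRP against PBS called 0 of the 9 genes and 0% of all genes in edgeR. At an unadjusted p under 0.05, these counts were 1 of 9 and 1136 of 16258. DESeq2 called 0 of the 9 and 33 of all genes. When rmTGF-β1 was present in these cells, adding rmCIRP called 1 of the 9, against 2.69% of all genes (1.56% higher and 1.13% lower). All 9 log2 values were above 0 there, with a median of 0.22, against 0 over all genes. Those of Pla2g4a, Ptger4 and Ptgir changed sign in fits with 1 library left out. At an unadjusted p under 0.05, the counts were 5 of 9 and 2912 of 16258.

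**Figure D1:**
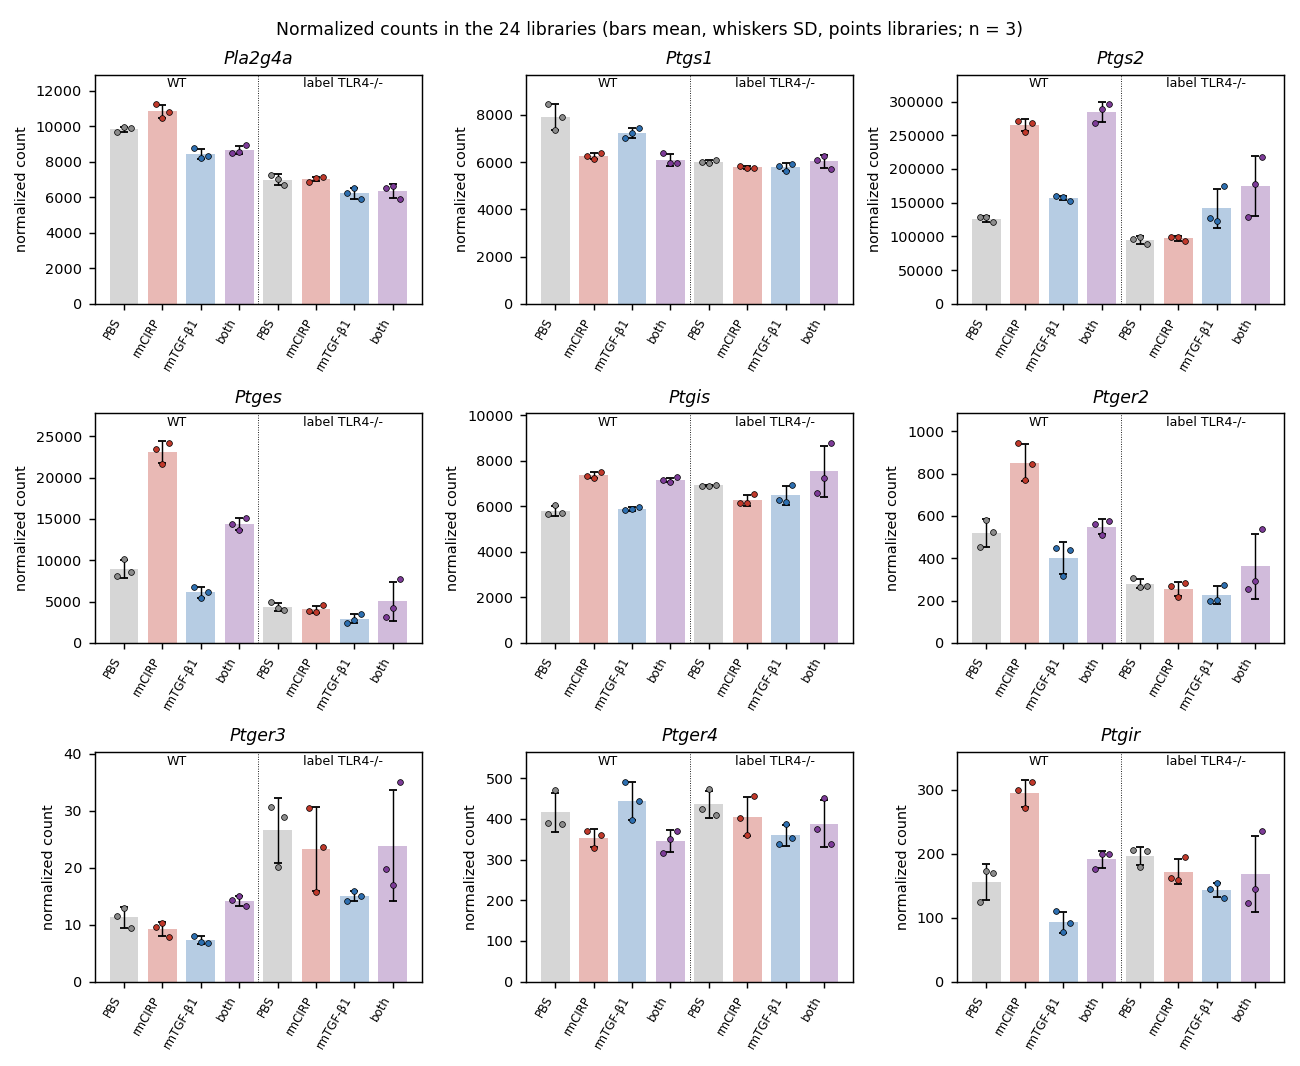
Normalized counts of the 9 tested genes (y axes, starting at 0) in the 8 conditions, WT on the left of each panel and libraries labelled TLR4-/- on the right. Bars are means, whiskers SD and points the 3 libraries. The rmCIRP bars of Ptgs2, Ptges, Ptger2 and Ptgir stand above PBS in WT, and for Ptgs2 and Ptges in the labelled TLR4-/- libraries the widest spread is with both agents.

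Pla2g4a, which supplies the arachidonic acid, was read at 9676.2, 9932.8 and 9892 normalized counts in the WT libraries with PBS and at 11225.8, 10481.7 and 10815.2 with rmCIRP. The groups did not overlap, yet the rise was small, 0.14 on the log2 scale (SE 0.04, adjusted p = 0.02), and without rmCIRP library 1 it was 0.11 (adjusted p = 0.11). With rmTGF-β1 the WT counts were 8781.4, 8233.2 and 8323.4, a log2 change of -0.22 (SE 0.04, adjusted p = 0.0026). The lower level with rmTGF-β1 was also called on top of rmCIRP in WT (-0.33, adjusted p = 1.8e-05) and in the labelled TLR4-/- cells against PBS (-0.16, adjusted p = 0.014). On top of rmCIRP in the labelled TLR4-/- cells it was -0.15 (adjusted p = 0.015), and -0.10 (adjusted p = 0.11) without library 3 with both. Pla2g4a was lower in every labelled TLR4-/- library, at 5908.7 to 7269.1, than in any WT library, which started at 8233.2. With PBS the difference between genotypes was -0.49 (SE 0.04, adjusted p = 5.2e-09).

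The cyclooxygenase transcripts were far from equal. Ptgs2 had a mean level of 820.4 CPM (reads scaled to library size) per kilobase of exon in WT cells with PBS and Ptgs1 one of 60.5, and by this measure Ptgs2 ranked 28 of 15946 genes. It took 0.273% to 0.849% of all reads on genes in a library. In the 3 WT libraries with rmCIRP, it was among the 5 genes with the most reads.

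Ptgs2 counted 128307.6, 129177.8 and 121057.6 in the WT libraries with PBS. With rmCIRP it counted 271308.7, 255092.3 and 268798.4. Every rmCIRP library lay above every PBS library, a fold change of 2.09, or 1.07 on the log2 scale (SE 0.13, adjusted p = 6.3e-07). With both agents it counted 267667, 289270.9 and 295640.8, which exceeded the 153131 to 159660.2 with rmTGF-β1 alone (log2 change 0.85, SE 0.13, adjusted p = 1.4e-05) and overlapped the libraries with rmCIRP alone. The change for rmTGF-β1 alone against PBS in WT was 0.31 (SE 0.12, adjusted p = 0.14), with no overlap between the libraries. In a fit of those 6 libraries alone it was 0.33 and passed the threshold (adjusted p = 4.9e-05), as it did with no filter (0.33, adjusted p = 5e-16). Both agents against rmCIRP alone in WT gave 0.10 (SE 0.12, adjusted p = 0.68). That comparison passed with no filter (0.11, adjusted p = 0.063) and in a fit of only the libraries compared (0.10, 0.049). The interaction of the agents for Ptgs2 in WT was -0.21 (SE 0.18, adjusted p = 0.97). It passed the threshold with no filter (-0.22, adjusted p = 0.0089) and in a fit of only the libraries compared (-0.23, 0.08).

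In the labelled TLR4-/- cells, Ptgs2 counted 95959.8, 99885.9 and 89029.8 with PBS and 99303.7, 98922.5 and 93009.3 with rmCIRP, and the groups overlapped (log2 change 0.04, SE 0.12, adjusted p = 0.99). It rose with rmTGF-β1, where the libraries had 127702, 122814.9 and 174658.8 (0.58, SE 0.13, adjusted p = 0.0022), the highest being library 3. Without the 2 libraries that stand apart this rise was 0.41 (adjusted p = 6e-04). With both agents the counts spread from 128841.8 over 177913.7 to 217934.8, and overlapped those with rmTGF-β1 alone (0.30, SE 0.12, adjusted p = 0.21). That comparison passed the threshold without library 3 with rmTGF-β1 (0.48, adjusted p = 0.025), without library 1 with both (0.48, adjusted p = 0.0073) and without the 2 libraries that stand apart (0.29, adjusted p = 0.082). Both agents against rmCIRP alone gave 0.84 (SE 0.13, adjusted p = 6.4e-05). The genotype difference in the rmTGF-β1 response was 0.27 (SE 0.18, adjusted p = 0.64), and 0.24 (adjusted p = 0.0018) with no filter.

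Ptgs1, the cyclooxygenase that most tissues express constantly, went the other way. Its WT counts were 8435.7, 7339.1 and 7884.3 with PBS and 6270.3, 6142.1 and 6392.5 with rmCIRP, which did not overlap. On the log2 scale the change was -0.34 (SE 0.04, adjusted p = 2.6e-06), and it held without each of the 6 libraries in turn. The fall was -0.25 (SE 0.04, adjusted p = 0.00011) when rmTGF-β1 was present. In the labelled TLR4-/- cells Ptgs1 stayed between 5602.7 and 6272.5 in all 12 libraries, with no call between treatments, and was lower with PBS than in WT (-0.39, SE 0.04, adjusted p = 1.7e-07). The change with rmTGF-β1 in WT was -0.13 (adjusted p = 0.076) with overlapping libraries. It missed the threshold without PBS library 1 (-0.06, adjusted p = 0.51), PBS library 3 (-0.13, 0.16), rmTGF-β1 library 1 (-0.11, 0.21) or rmTGF-β1 library 2 (-0.13, 0.18), with no filter (-0.11, 0.23) and in a fit of the 6 libraries alone (-0.11, 0.14).

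The ratio of Ptgs2 to Ptgs1 per kilobase therefore moved further than either gene alone. It was 13.6 ± 1.14 (SD, n = 3) in WT with PBS and 35.9 ± 0.757 with rmCIRP, then 18.4 ± 0.905 with rmTGF-β1 and 39.6 ± 3.59 with rmCIRP added to it. The same 4 ratios in labelled TLR4-/- libraries were 13.4 ± 0.922, 14.3 ± 0.483, 20.7 ± 3.74 and 24.8 ± 7.25 (SD, n = 3). With PBS the ratio was thus near-equal in the genotypes (12.9 to 14.9 and 12.4 to 14.2) although each gene was lower in the labelled TLR4-/- libraries.

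**Figure D2:**
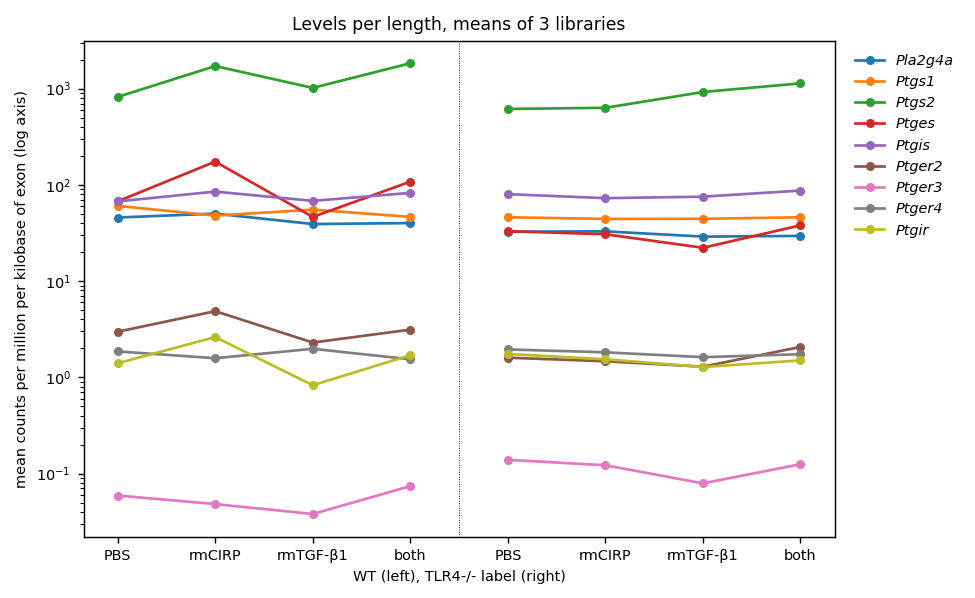
Mean level of each gene in CPM per kilobase of exon (log axis) in the 8 conditions, WT on the left and labelled TLR4-/- on the right, points being means of 3 libraries. Ptgs2 runs above all others at 616 to 1836.2, Ptges lies above Ptgis in WT with rmCIRP (174.4 against 85.2), and Ptger3 stays at 0.038 to 0.139.

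Ptges had the widest range of the 9 tested members, 7.91-fold between its highest and lowest condition means. Its WT counts were 8098.8, 10128.5 and 8517.1 with PBS and 23467.1, 21674.4 and 24163.4 with rmCIRP, a fold change of 2.58 (log2 1.37, SE 0.20, adjusted p = 9.6e-06). With rmTGF-β1 they were 6788.3, 5449.4 and 6181.7, and with both agents 14422.5, 13604.4 and 15058.7. The 4 WT conditions did not overlap: rmCIRP was highest, then both agents, then PBS, then rmTGF-β1. Adding rmCIRP to rmTGF-β1 raised it by 1.22 (SE 0.20, adjusted p = 4.5e-05), and adding rmTGF-β1 to rmCIRP lowered it, at -0.69 on the log2 scale (SE 0.19, adjusted p = 0.018). For rmTGF-β1 against PBS in WT the value was -0.54 (SE 0.20, adjusted p = 0.095). It missed the threshold without any 1 of the 6 libraries, at -0.62 to -0.43 (adjusted p = 0.11 to 0.3), and under DESeq2 (-0.54, adjusted p = 0.14). The interaction of the agents in WT was -0.15 (SE 0.28, adjusted p = 0.99).

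Ptges in labelled TLR4-/- libraries counted 4906, 4240.9 and 3950.2 with PBS and 3879.5, 3731.6 and 4545.6 with rmCIRP (-0.10, SE 0.20, adjusted p = 0.97). Each of these was below every WT library with PBS (-1.03 between genotypes, SE 0.20, adjusted p = 0.00022). With rmTGF-β1 the counts were 2423.7, 2796 and 3537.6 (-0.57, SE 0.20, adjusted p = 0.052). That call was lost without PBS library 1 (-0.48, adjusted p = 0.17), rmTGF-β1 library 1 (-0.46, 0.2) or rmTGF-β1 library 2 (-0.54, 0.12), and the value was -0.74 (adjusted p = 1e-04) without the 2 libraries that stand apart. With both agents they were 3134.4, 4264.7 and 7686.6, and overlapped those with rmTGF-β1. This was the one call of both against rmTGF-β1 among the 9 genes in these cells, against 2.69% of all genes, 1.56% higher and 1.13% lower (0.78, SE 0.20, adjusted p = 0.075). It was 0.34 without library 3 with both (adjusted p = 0.49) and was also lost without rmTGF-β1 library 1 (0.67, adjusted p = 0.39) or library 2 (0.75, 0.21). Without the 2 libraries that stand apart it was 0.50 (adjusted p = 0.045), and in a fit of the 6 libraries alone 0.78 (adjusted p = 0.68).

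Ptgis varied little, 1.3-fold between its condition means. Its WT counts were 5647.5, 6047.2 and 5714.1 with PBS and 7330.3, 7262.5 and 7517.7 with rmCIRP, which did not overlap (0.34, SE 0.06, adjusted p = 0.00023). With rmTGF-β1 they were 5834.1 to 5984.8 and with both 7076.1 to 7277.2 (0.28, SE 0.06, adjusted p = 0.0018). The rmCIRP and both conditions overlapped, as did PBS and rmTGF-β1. With PBS it was higher in labelled TLR4-/- libraries than in WT, at 6896.6 to 6959.6 (0.25, SE 0.06, adjusted p = 0.0033), in contrast to Ptges and both cyclooxygenases. With rmCIRP it was there at 6135.8, 6132.4 and 6533.4 (-0.14, SE 0.06, adjusted p = 0.7), and was the 1 gene of the 9 below 0.05 before adjustment. Both agents against rmCIRP gave 0.26 in these cells (SE 0.06, adjusted p = 0.0048), and 0.14 (adjusted p = 0.011) without the libraries that stand apart. In a fit of the 6 libraries alone the call was lost (0.26, adjusted p = 0.12). Both against rmTGF-β1 in these cells gave 0.21 for Ptgis (SE 0.06, adjusted p = 0.11). With 1 library left out this ranged from 0.09 to 0.3 (adjusted p = 0.0044 to 0.62), and without the 2 libraries that stand apart it was 0.14 (adjusted p = 0.077).

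The receptor transcripts were much scarcer than those of the enzymes. In WT cells with PBS their mean level in CPM per kilobase of exon was 2.98 for Ptger2, 1.86 for Ptger4, 1.4 for Ptgir and 0.0591 for Ptger3, while the 5 tested enzymes had 45.8 or more. Ptger3 had 7 to 34 raw reads a library, so only large changes could be seen.

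Ptger2, the EP2 receptor, counted 452.3, 583.1 and 522.5 in WT with PBS and 943.4, 768.5 and 845.6 with rmCIRP. The groups did not overlap (fold change 1.64, log2 0.71, SE 0.18, adjusted p = 0.0033). With rmTGF-β1 it counted 449.9, 316 and 439.5, and with both 559.8, 509.5 and 577.3. Like Ptges, it was lower with both than with rmCIRP alone (-0.64, SE 0.18, adjusted p = 0.018). Both against rmTGF-β1 gave 0.44 (SE 0.19, adjusted p = 0.073), which was lost without rmTGF-β1 library 2 (0.29, adjusted p = 0.3), or without library 1 (0.43, 0.14) or 3 (0.40, 0.17) with both, and under DESeq2 (0.45, 0.13). The labelled TLR4-/- libraries had 304.3, 264.9 and 270.8 with PBS, below every WT library with PBS (-0.89, SE 0.20, adjusted p = 0.00088), and 268.4, 218.1 and 281.2 with rmCIRP (-0.13, SE 0.21, adjusted p = 0.97). With both agents its counts were 253.5, 293.7 and 538.7. Against rmCIRP alone this was called (0.49, SE 0.20, adjusted p = 0.084), but was 0.10 (adjusted p = 0.73) without library 3 with both, and was also lost without rmCIRP library 1 (0.54, 0.12) or 2 (0.40, 0.25). Against rmTGF-β1 alone the value was 0.67 (SE 0.21, adjusted p = 0.11). With 1 library left out it ranged from 0.28 to 0.87 (adjusted p = 0.011 to 0.69), and without the 2 libraries that stand apart it was 0.45 (adjusted p = 0.17).

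Ptgir, the prostacyclin receptor, was the other receptor that rose with rmCIRP in WT. It counted 124.2, 173.7 and 170.7 with PBS and 300.3, 271.6 and 312.2 with rmCIRP (fold change 1.88, log2 0.91, SE 0.17, adjusted p = 0.00014). It fell with rmTGF-β1, to 109.9, 76.99 and 92.13 (-0.75, SE 0.19, adjusted p = 0.015). With both it stood between, at 176.4, 199.6 and 199.5, above rmTGF-β1 alone (1.04, SE 0.19, adjusted p = 0.00014) and below rmCIRP alone (-0.63, SE 0.16, adjusted p = 0.01). Ptgir in labelled TLR4-/- libraries was at 205.5, 180.1 and 205.1 with PBS, all above the WT libraries with PBS, although the difference missed the threshold (0.33, SE 0.17, adjusted p = 0.13). With rmCIRP it was at 162.2, 159.6 and 194.6 (-0.19, SE 0.17, adjusted p = 0.9). With rmTGF-β1 it was at 144.9, 154.1 and 131.2 (-0.46, SE 0.17, adjusted p = 0.074). That call was lost without PBS library 1 (-0.43, adjusted p = 0.17) or 3 (-0.43, 0.17), or rmTGF-β1 library 1 (-0.47, 0.13) or 3 (-0.39, 0.22). Both against rmCIRP in these cells gave -0.05 (SE 0.17, adjusted p = 0.88), and -0.36 (adjusted p = 0.079) without the 2 libraries that stand apart.

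Ptger4, the EP4 receptor, changed least over the conditions, 1.29-fold between means, and no neighbours in the order of its 8 means were free of overlap. Its WT counts were 388.8, 471.2 and 388.2 with PBS and 370.3, 328.2 and 361.6 with rmCIRP (-0.24, SE 0.11, adjusted p = 0.09). The call was lost without PBS library 2 (-0.13, adjusted p = 0.41) or rmCIRP library 2 (-0.18, 0.28) or 3 (-0.24, 0.15), and under DESeq2 (adjusted p = 0.11). The fall on top of rmTGF-β1, where the libraries had 398 to 490.2 without rmCIRP and 316.1 to 370.1 with it, was -0.37 (SE 0.11, adjusted p = 0.011), and held without each of the 6 libraries in turn. Labelled TLR4-/- libraries were at 338 to 387.9 with rmTGF-β1 and 410.1 to 473.7 with PBS (-0.27, SE 0.11, adjusted p = 0.088). This was lost without PBS library 1 (-0.29, adjusted p = 0.13) or 2 (-0.21, 0.29), or rmTGF-β1 library 1 (-0.23, 0.23) or 3 (-0.26, 0.2), and without the 2 libraries that stand apart (-0.26, 0.13).

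Ptger3, the EP3 receptor, was the member with the largest excess in labelled TLR4-/- cells. It counted 11.55, 12.98 and 9.367 in WT with PBS and 30.63, 20.13 and 28.87 in labelled TLR4-/- libraries, without overlap (1.22, SE 0.28, adjusted p = 0.0013). In WT it was at 9.55, 10.29 and 7.903 with rmCIRP (-0.30, SE 0.35, adjusted p = 0.55), at 8.069, 6.999 and 6.761 with rmTGF-β1, and at 14.27, 15.09 and 13.3 with both. Both against rmTGF-β1 gave 0.95 (SE 0.35, adjusted p = 0.038), which reached 0.1 without rmTGF-β1 library 3 (0.90). With rmTGF-β1 the labelled TLR4-/- libraries were at 14.2, 15.94 and 15.06 (-0.81, SE 0.26, adjusted p = 0.036). This missed the threshold under DESeq2 (-0.82, adjusted p = 0.1) and without PBS library 1 (-0.70, adjusted p = 0.14) or 3 (-0.75, 0.11), or rmTGF-β1 library 1 (-0.78, 0.1) or 3 (-0.81, 0.1).

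The response to rmTGF-β1 can be read across the genes from these values. Against PBS it called 4 of 9 genes in WT, all lower (Pla2g4a, Ptgs1, Ptges and Ptgir), where 12.4% of all genes were called, 5.77% higher and 6.65% lower. The count was 2 without PBS library 1 or 3 or rmTGF-β1 library 1 or 2, and 3 without PBS library 2 or rmTGF-β1 library 3. Over all genes these fits called 1029 to 1690, where the fit of all libraries called 2019. The labelled TLR4-/- cells had 6 of 9 called, with Ptgs2 higher and Pla2g4a, Ptges, Ptger3, Ptger4 and Ptgir lower, where 23.9% of all genes were called, 12.1% higher and 11.7% lower. It was 2 without PBS library 1 or rmTGF-β1 library 1, 3 without rmTGF-β1 library 3, and 4 to 5 without any other. Over all genes these fits called 2517 to 3783, where the fit of all libraries called 3884. Without the 2 libraries that stand apart it was 7, against 3546 of 16483 genes. Ptger2 (-0.48, adjusted p = 0.034) and Ptgis (-0.14, adjusted p = 0.014) were then also called lower, and Ptger4 was not called. The difference between genotypes in this response called 0 of the 9 genes and 0.0861% of all genes in edgeR (0.0369% higher and 0.0492% lower). At an unadjusted p under 0.05, the counts were 1 of 9 and 1686 of 16258. DESeq2 also called 0 of the 9, and 163 of all genes. Both agents against rmCIRP called 4 of 9 in WT, all lower (Pla2g4a, Ptges, Ptger2 and Ptgir, against 20.5% of all genes, 10% higher and 10.5% lower). This comparison called 4 of 9 in labelled TLR4-/- cells, with Ptgs2, Ptgis and Ptger2 higher and Pla2g4a lower, against 32.8% (17.2% higher and 15.6% lower). In a fit of the 6 libraries alone that count was 1, with Pla2g4a (-0.15, adjusted p = 0.11), Ptger2 (0.49, 0.27) and Ptgis no longer called. Over all genes that fit called 2710 of 15192, where the fit of all libraries called 5329 of 16258. Without the 2 libraries that stand apart the count was again 4, against 4169 of 16483 genes. Ptger2 was then not called (0.10, adjusted p = 0.7) and Ptgir was called lower (-0.36, adjusted p = 0.079). The interaction of rmCIRP and rmTGF-β1 in WT called 0 of 9 and 0.0492% of all genes in edgeR (0.0369% higher and 0.0123% lower). At an unadjusted p under 0.05, the counts were 1 of 9 and 917 of 16258. In DESeq2 the interaction called 0 of 9 and 37 of all genes.

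**Figure D3:**
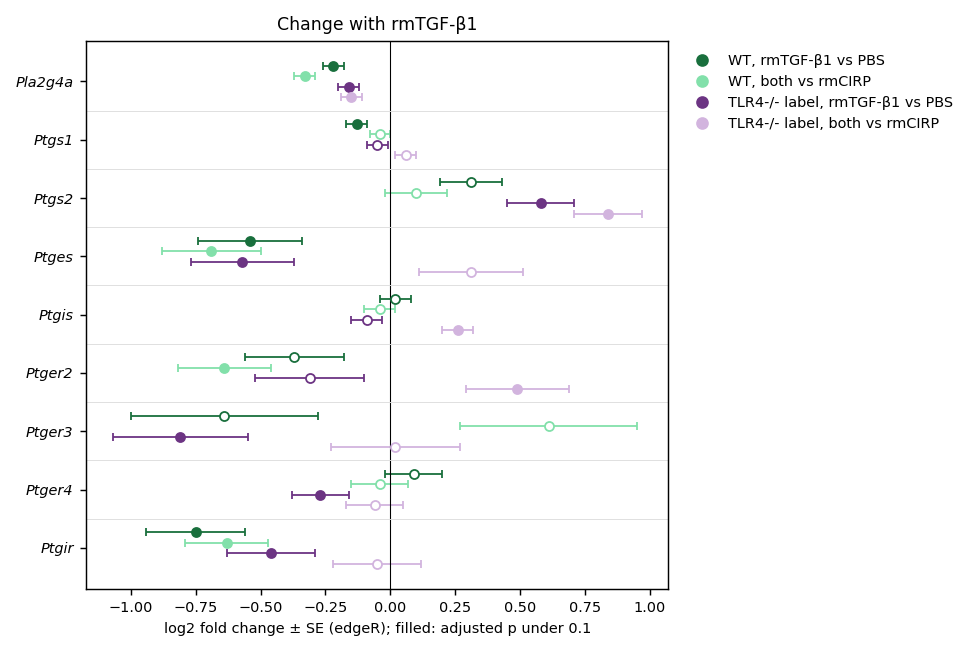
Log2 fold change ± SE of the 9 genes with rmTGF-β1, against PBS and on top of rmCIRP, in WT and labelled TLR4-/- cells. Filled points had an adjusted p under 0.1. Pla2g4a lies left of 0 in all 4 comparisons (-0.33 to -0.15), whereas Ptgs2 lies right of it (0.10 to 0.84). In the fit shown, Ptgs2 was called in the labelled TLR4-/- cells only, although the genotype difference against PBS was not called. With no filter, or with only the libraries compared, Ptgs2 was also called in both WT comparisons.

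The response to rmCIRP was then compared between the genotypes by the difference of the log2 fold changes. It was called for 6 of the 9 genes, against 31.4% of all genes (17.1% higher and 14.3% lower). Ptges had the largest difference, -1.47 (SE 0.28, adjusted p = 0.00047), followed by Ptgir at -1.10 (SE 0.24, adjusted p = 0.0015) and Ptgs2 at -1.03 (SE 0.18, adjusted p = 0.00017). The differences for Ptger2 (-0.84, SE 0.28, adjusted p = 0.031) and Ptgis (-0.48, SE 0.09, adjusted p = 0.00049) had the same sign, and that of Ptgs1 was 0.28 (SE 0.06, adjusted p = 0.002). These 6 calls held without each of the 12 libraries in turn.

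In the presence of rmTGF-β1 the difference was called for 4 of the 9 genes, against 20.9% of all genes (10.5% higher and 10.4% lower): Ptgir at -0.82, Ptgs2 at -0.55, Ptger4 at 0.48 and Ptgs1 at 0.30. For Ptges it was -0.44 (SE 0.28, adjusted p = 0.33), and -0.88 (adjusted p = 9e-04) without library 3 of the labelled TLR4-/- cells with both agents. Ptgis was likewise called without it, at -0.18 (adjusted p = 0.033), where the value with all libraries was -0.07 (adjusted p = 0.7). The Ptgs2 difference was lost without labelled TLR4-/- library 3 with rmTGF-β1 (-0.37, adjusted p = 0.14) and in a fit of the 12 libraries alone (-0.55, adjusted p = 0.15). That of Ptger4 was lost without labelled TLR4-/- library 2 with both (0.35, adjusted p = 0.13) and reached 0.1 without WT library 1 with both (0.42). Without both libraries that stand apart, 6 of the 9 differences were called, against 3903 of all 16483 genes tested in that fit.

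**Figure D4:**
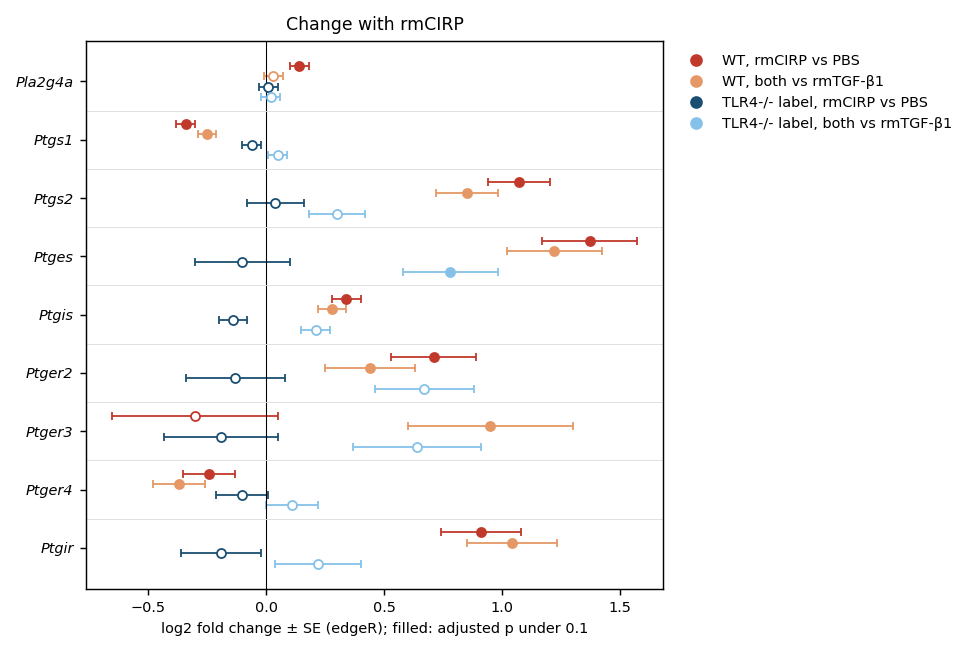
Log2 fold change ± SE of the 9 genes with rmCIRP, against PBS and on top of rmTGF-β1, in WT and labelled TLR4-/- cells. Filled points had an adjusted p under 0.1. In WT, Ptgs2, Ptges and Ptgir lie at 0.85 to 1.37 in both backgrounds, and in the labelled TLR4-/- cells without rmTGF-β1 all 9 points lie between -0.19 and 0.04.

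With PBS alone, the genotypes differed in 7 of the 9 genes, 2 higher (Ptger3 and Ptgis) and 5 lower (Pla2g4a, Ptgs1, Ptgs2, Ptges and Ptger2) in labelled TLR4-/- cells, against 47.1% of all genes (23.2% higher and 24% lower). The Ptgs2 difference was -0.41 (SE 0.13, adjusted p = 0.011). The 13 macrophage markers moved with the same contrast, 13 of 13 higher, with none at 0 in any condition. The 6 epithelial markers summed to 326.4 to 344.8 there and 70.78 to 115.5 in WT. Of these, 3 were tested and all 3 were higher, while Epcam, Sftpc and Scgb1a1 had at most 11, 6 and 3 raw reads in any library. The 4 smooth muscle markers summed to 290087.4 to 302957.6 and 377125.2 to 405897.8, with 3 lower and 1 higher. Acta2 had a mean of 241000 against 309000 in WT, and Des 10700 against 4570. The 5 endothelial markers went the other way from the macrophage markers, 4 of 5 lower, with sums of 291.7 to 369.5 and 584.2 to 868.6. Of the 8 fibroblast markers, 1 was higher and 2 lower, with overlapping sums of 672715.7 to 761607.9 and 708969.1 to 770267.3. Pdgfra had a mean of 3450 against 7870 in WT, and Thy1 8030 against 17800. The part of these cell types in the differences was not tested, and in bulk RNA fewer cells of a type and less RNA per cell cannot be told apart. Sex-linked transcripts also moved with genotype, and the cells of each genotype came from their own pools of lungs, which cannot be told apart from it. Within WT, the summed macrophage markers ranged from 79015.2 to 98871.1 over the 4 treatments, and were 80546.1 to 85790.9 with rmCIRP, below PBS (4 of 13 genes higher and 8 lower). The smooth muscle markers were lower with rmCIRP in WT (300756.1 to 334484), 4 of 4 genes. The fibroblast markers summed to 601616.8 to 647247.9 with rmCIRP and 708969.1 to 770267.3 with PBS in WT, without overlap, 2 of 8 genes higher and 4 lower. The epithelial markers summed to 32.92 to 41.49 with rmCIRP, below PBS, with 3 of the 3 tested lower. The 1 tested gene of the lymphocyte and neutrophil list, S100a8, was higher, at 1.04 on the log2 scale. The list's sum was 263.4 to 307.2 against 123.2 to 146.8 with PBS. It was mostly S100a8, since Cd79a, Ly6g and Cd3e had at most 9, 2 and 1 raw reads in any library. The part of these markers in the rmCIRP changes was not tested.

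**Figure D5:**
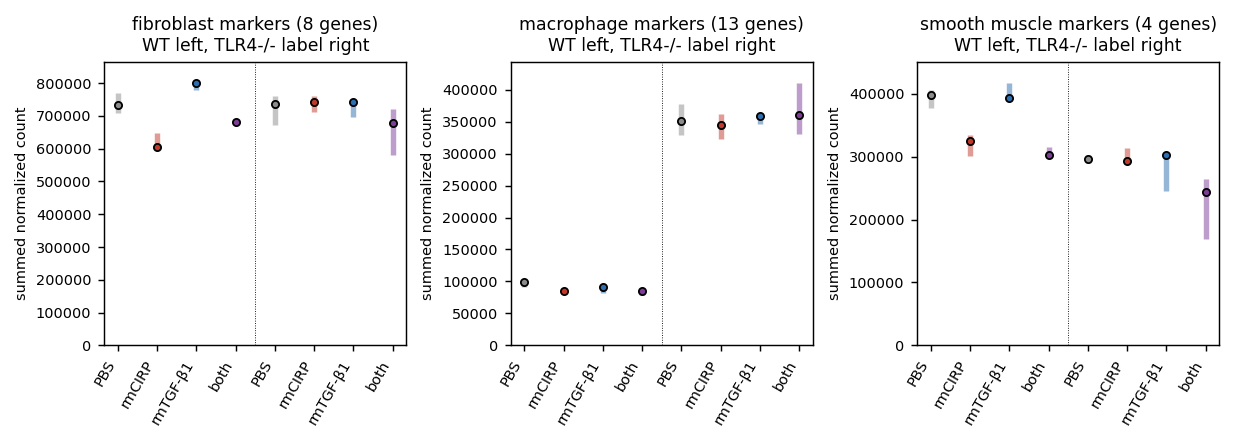
Summed normalized counts of fibroblast, macrophage and smooth muscle markers (y axes, starting at 0) in the 8 conditions. Points are the median of 3 libraries and bars run from the lowest to the highest. Macrophage markers lie at 79015.2 to 98871.1 in WT and at 322297.3 to 410771.1 in labelled TLR4-/- libraries.

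Other genes of the pathway were counted by list. Of 7 further terminal synthases, rmCIRP in WT called 1 higher and 3 lower, none by more than 0.32 on the log2 scale, where 43.9% of all genes were called (19.8% higher and 24.1% lower): Ptges3, the cytosolic prostaglandin E synthase, at 0.18, Cbr1 at -0.16, Prxl2b at -0.18 and thromboxane synthase Tbxas1 at -0.32. Of 5 further receptors, 3 were tested, and the thromboxane receptor Tbxa2r fell, from 179, 201.7 and 214.4 to 73.22, 66.87 and 66.19 (-1.53, SE 0.21, adjusted p = 6.1e-06). The prostaglandin D2 receptors were not tested: Ptgdr had no reads in any library and Ptgdr2 at most 6 in a library.

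All 5 genes of transport and inactivation were called with rmCIRP in WT, 2 higher and 3 lower, against the same 43.9% of all genes. The exporter Abcc4 rose from 1060.6, 994.4 and 947.2 to 2038.4, 2206.8 and 2553.7 (1.17, SE 0.15, adjusted p = 1.3e-06), and the transporter Slco2a1, which takes prostaglandins up, rose by 0.47. The 3 inactivating enzymes fell. Hpgd, 15-hydroxyprostaglandin dehydrogenase, had 5, 9 and 5 raw reads with PBS and 0, 0 and 1 with rmCIRP in WT, so no fold is given, while Ptgr1 and Ptgr2 fell by 0.25 and 0.16. The labelled TLR4-/- libraries with PBS had 139, 136 and 144 raw reads of it. The genotype difference in the rmCIRP response was called for all 5, against 31.4% of all genes, with Abcc4 at -1.27 (SE 0.21, adjusted p = 0.00011).

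Of 12 further phospholipases A2, 7 were tested and 3 called with rmCIRP in WT, 2 higher and 1 lower, which is near the 43.9% called over all genes. Pla2g4c rose from 11.55, 11.98 and 6.245 to 49.87, 38.07 and 53.35 (2.22, SE 0.29, adjusted p = 2.3e-06), Pla2g6 rose by 0.39, and the lysosomal Pla2g15 fell by 0.66. Of 10 genes of the leukotriene and lipoxygenase branch, 8 were tested, with 1 higher and 3 lower, also near that share. The 5-lipoxygenase gene Alox5 fell from 94.32, 115.8 and 109.3 to 19.1, 16.46 and 24.7 (-2.40, SE 0.16, adjusted p = 5.1e-11), and its partner Alox5ap by 1.00. The 1 higher was Cysltr2, at 2, 1 and 0 raw reads with PBS and 5, 4 and 4 with rmCIRP. With PBS, 5 of the 8 tested genes of this branch were higher and 1 lower in labelled TLR4-/- libraries than in WT. Of the 7 further synthases 2 were higher and 1 lower, against 47.1% of all genes (23.2% higher and 24% lower). Those higher included Alox5 (2.43), Alox5ap (2.33), Hpgds (2.48) and Tbxas1 (1.87). The macrophage markers were higher there too, and their part in these differences was not tested. With rmCIRP in the labelled TLR4-/- cells, 0 genes of these 5 lists were called in edgeR, and 0 had an unadjusted p under 0.05.

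Reads of the neighbouring long noncoding genes Ptgs2os and Ptgs2os2 bear on Ptgs2, because the strand setting of the counting is not given in the sources used here. Ptgs2os counted 255.4 to 712.7 and Ptgs2os2 505.6 to 1991.8, and Ptgs2 counted at least 89029.8 in every library. In WT, Ptgs2os2 was at 878.5 to 951.8 with PBS and 1864.4 to 1991.8 with rmCIRP, and Ptgs2os at 314.3 to 397.5 and 587.5 to 650.5, without overlap in either.

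The genes closest to 4 members over the 24 libraries are given as a description, with Pearson's r of log2 CPM and no p, since the libraries fall into 8 conditions. For Ptgs2 they were Ctbp2 (r = 0.991), Mybbp1a (0.983) and Itga2 (0.978). For Ptges they were Stc1 (0.988), Nfkbiz (0.982) and Pde4b (0.982), of which Nfkbiz encodes a nuclear IκB protein and Pde4b a cyclic AMP phosphodiesterase. For Ptger2 they were Ahr (0.979), Plpp3 (0.976) and Phc2 (0.975), and for Ptgis Sqstm1 (0.952), B4galt5 (0.942) and Slc1a5 (0.935). Among the members themselves, Ptges and Ptger2 were closest (r = 0.97), and Ptgs2 and Ptgs1 had an r of -0.03.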

How the data were processed

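Libraries of total RNA were made with a stranded Illumina kit and sequenced on a NextSeq instrument. The authors used STAR2 with the GENCODE mouse reference for alignment and ht-seq for counting, and deposited unnormalized counts, 1 table a library, named by gene symbol. The submitters' processing notes name NCBIM37, FastQC and HTSeq. The annotation release and the strand setting are not given in the sources used here. Each library has 55291 names, and 5 tally lines (no feature 3.48% to 4.68%, ambiguous 4.57% to 5.23%, not unique 6.07% to 6.82%, as percent of gene and tally counts together) were left out.

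The 10 genes, the lists and the tests were chosen with earlier results of these data known. Genes were kept by filterByExpr of edgeR 4.0.16 in R 4.3.3, which left 16258. Libraries were scaled by TMM, 1 model with 8 condition means was fitted to all 24 libraries, and the quasi-likelihood F-test was applied to 13 contrasts, with adjustment by Benjamini-Hochberg across the 16258 genes. Calls have an adjusted p under 0.1, as the study used. The SE of a log2 fold change is its size over the root of F. Normalized counts are counts divided by DESeq2 1.42.0 size factors and describe levels. Levels per kilobase use exon lengths of GENCODE M21. The tests were checked on simulated data.

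Named genes are the 10 members, genes of the 5 pathway lists called in the comparison described or in lists with few tested genes, the 3 genes most correlated with each of 4 members from genes whose mean normalized count was 50 or more, and Tlr4. Xist, Ddx3y, the neighbours of Ptgs2 and the single cell type markers were added after their values were seen. Promoters are from a RefSeq table of GRCm38.p6, matched by symbol, and no coordinates were converted. Alternatives were DESeq2, RLE scaling, no filter, a mean count of at least 10, the replicate number as a block, only the libraries compared, each library left out in turn, and, chosen after seeing the data, the 2 libraries that stand apart left out together.

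Replicates differed by more than counting error (chi-square per degree of freedom 2.67 to 50.6 over 24 pairs), so no library was counted as a duplicate. The common biological coefficient of variation was 0.0571.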

Additional observations from a re-analysis of the deposited data

Results flagged for a closer look

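The response to rmCIRP differed between the genotypes for 6 of the 9 tested genes by edgeR's test of the difference itself, labelled TLR4-/- minus WT on the log2 scale: Ptgs1 at 0.28, Ptgs2 at -1.03, Ptges at -1.47, Ptgis at -0.48, Ptger2 at -0.84 and Ptgir at -1.10. In the presence of rmTGF-β1 it differed for 4: Ptgs1 at 0.30, Ptgs2 at -0.55, Ptger4 at 0.48 and Ptgir at -0.82. Ptgs1, Ptgs2 and Ptgir are in both sets. Groups of 3 libraries were too small for a test of single outlying libraries.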

How the results depend on the processing

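Of 1615 comparisons of a gene's value with an alternative (other than leaving out both libraries that stand apart), 1481 kept direction and side of the threshold, 56 lost a call, 40 gained one and 38 changed sign, and none of the last had been called. Leaving out 1 library, calls among the 9 genes ranged from 2 to 3 for rmTGF-β1 in WT, 2 to 5 for rmTGF-β1 in labelled TLR4-/- cells, and 0 to 4 for both against rmTGF-β1 in those cells. That last count, 1 as reported, was 3 with DESeq2, 4 with no filter, 2 with a mean count of at least 10, 3 with the replicate block, 0 in a fit of only the libraries compared, and 3 without the 2 libraries that stand apart (7 for rmTGF-β1 against PBS there). Over all genes it was 437 as reported, 902, 1580, 531, 810 and 0 under the first 5 of these. Without the 2 libraries that stand apart it was 652 of 16483, and 3546 for rmTGF-β1 against PBS. The 3 ranges with 1 library left out were 1029 to 1690, 2517 to 3783 and 0 to 2674 over all genes. Both against rmCIRP in labelled TLR4-/- cells fell from 4 to 1 with only the libraries compared, and over all genes from 5329 to 2710. The genotype difference in the rmTGF-β1 response rose from 0 to 2 with no filter, and over all genes from 14 to 563. These 2 were Ptgs2 (0.24, adjusted p = 0.0018) and Ptger4 (-0.40, 0.056). The interaction in WT rose from 0 to 1, which was Ptgs2, with no filter (-0.22, adjusted p = 0.0089) and with only the libraries compared (-0.23, 0.08). Over all genes it rose from 8 to 198 and 125. The cause was not tested.

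Log2 values that changed sign when 1 library was left out ranged as follows. With both against rmCIRP in WT, Ptger4 had -0.09 to 0.03. With rmCIRP in labelled TLR4-/- cells, Pla2g4a had -0.03 to 0.04, Ptgs2 -0.01 to 0.07 and Ptger3 -0.44 to 0.02. With both against rmTGF-β1 there, Pla2g4a had -0.01 to 0.07, Ptger4 -0.02 to 0.2 and Ptgir -0.09 to 0.4. With both against rmCIRP there, Ptges had -0.13 to 0.56, Ptger3 -0.34 to 0.27, Ptger4 -0.19 to 0.03 and Ptgir -0.36 to 0.13. Between genotypes with PBS, Ptger4 had 0 to 0.18. For the genotype difference in the rmCIRP response Ptger3 had -0.16 to 0.3, and with rmTGF-β1 present Pla2g4a had -0.04 to 0.05, Ptgis -0.18 to 0.03 and Ptger2 -0.16 to 0.43. For that in the rmTGF-β1 response Ptges had -0.19 to 0.07 and Ptger2 -0.11 to 0.15. Without the 2 libraries that stand apart, Ptgir had -0.15 for both against rmTGF-β1, Ptger3 -0.35, Ptger4 0.03 and Ptges -0.13 for both against rmCIRP, Pla2g4a 0.01 and Ptger2 -0.11 for the last 2 differences.

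The replicate numbers did not pair the libraries (mean r of deviations 0.012 over 84 same-numbered pairs, and 12 of 24 libraries correlated best with their own number). The replicate block lost the Ptger4 call with rmCIRP in WT (-0.24, adjusted p = 0.1) and added Ptger2 (0.66, adjusted p = 0.072) and Ptgis (0.21, 0.064) for both against rmTGF-β1 in labelled TLR4-/- cells, and changed no other call. Ptger3, with 7 to 34 reads a library, is the member whose precision depth limits most.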
